A study of Actinidia chinensis with 4 samples.

Results

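Of the 39761 gene models counted in the flesh of the red-centred kiwifruit Actinidia chinensis cv. Hongyang, 283 were well expressed and nearly level in the inner and outer pericarp. They were chosen from the counts themselves. Their mean over the 4 libraries was at least 100 and under 500 CPM (a gene model's count per 1000000 counts of the library's column total without Ach00g022471.2), and their highest CPM was at most 15% above their lowest. That bound on the ratio of the highest to the lowest library is called the limit below. Because the choice used every library and the contrast between the tissues, the evenness of the 283 members is a description and was not tested. The abundance class from which they came, at 100 to 500 CPM, held 1325 gene models, of which 1042 exceeded the limit.

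The fruits were grown under natural conditions and sampled 90 days after anthesis. Total RNA from inner pericarp gave 2 libraries and total RNA from outer pericarp gave 2, with the same cultivar and stage in both groups and no treatment or other genotype. The libraries held between 5228147 and 5789006 counts once Ach00g022471.2 was set aside. The labels do not say whether the libraries of a tissue came from separate fruits, and they number no replicates, so the numbers 1 and 2 are names and a p-value here reflects spread among these samples that could be technical. The identifiers are not paired with names or functions in the file, so neither the tissues nor the members could be checked against marker genes, and no member is given a role or a sequence here. In whole tissue, fewer cells of a type and less RNA per cell cannot be told apart.

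In a kiwifruit the outer pericarp is the flesh beneath the skin, and the inner pericarp surrounds the core and holds the locules with the seeds. In Hongyang the red anthocyanin pigment lies in the inner part. Genes whose RNA stays level between tissues are used as references in quantitative PCR, where the level of another gene is read against them. In sequencing, the scaling of libraries rests on the same idea, that a large body of genes does not change, so the choice of level genes and the choice of scaling depend on each other.

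Ach00g022471.2 was left out before scaling because it had 0 counts in inner pericarp replicate 1 and took 12.6% to 14.2% of all counts in the other libraries. The library pairs were unequally close. A chi-square of the counts came to 1.38 per degree of freedom between the inner libraries (20031 gene models) and 5.98 between the outer libraries (20182 gene models), so neither pair was within sampling noise and each library was counted as 1 sample.

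Most of the 283 members lay in the lower part of the abundance class, with 183 below 200 CPM, 54 from there to 300 CPM and 46 above. Their mean level ran from 100.3 to 497 CPM with a median of 165 CPM, and the rest of the class had a median of 156 CPM. Together they took 5.68% and 5.66% of the counts of inner pericarp replicates 1 and 2, and 5.67% and 5.69% of those of outer pericarp replicates 1 and 2. Their summed share was therefore nearly the same in all 4 libraries, which follows largely from the limit on each member. The highest over lowest CPM had a median of 1.11 over the members and of 1.36 over the rest of the class. Most members lay in the outer part of the permitted range. In 30 of them the highest library was up to 5% above the lowest, in 81 between 5% and 10% and in 172 between 10% and 15%. The class continued past the limit without a gap, with 163 further gene models between 15% and 20%.

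**Figure D1:**
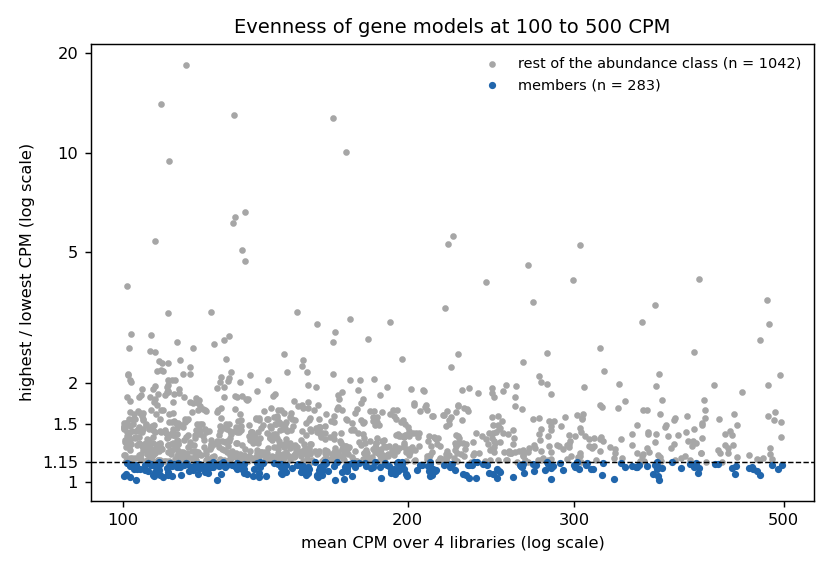
Mean CPM over the 4 libraries (horizontal, log scale) against the highest over the lowest CPM (vertical, log scale) for the 1325 gene models of the abundance class, 1 point each. The dashed line is the limit of 15%, the 283 members lie on or below it, and no gap in the points marks the limit.

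The most even member was Ach19g406511.2 (identifier group 19, coding length 1308 bases), with 125 CPM in inner pericarp replicate 1, 126 CPM in inner replicate 2, 125 CPM in outer replicate 1 and 126 CPM in outer replicate 2. The corresponding counts were 710, 729, 708 and 661, and the libraries of the tissues overlapped. Ach13g018431.1 (group 13, 1857 bases) had 373 and 368 CPM in inner pericarp and 369 and 368 CPM in outer pericarp, a ratio of 1.01 between the highest and the lowest. Its CPM, not divided by coding length, was about 3 times that of Ach19g406511.2, at a like ratio.

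The next most even members covered a similar span of abundance. Ach23g163681.1 (group 23, 1680 bases) had 167 and 169 CPM in inner pericarp and 169 and 166 CPM in outer pericarp. Ach04g396421.2 (group 04, 522 bases) had 102 and 104 CPM in inner pericarp and 104 and 103 CPM in outer pericarp. In both, the tissues overlapped and no library stood apart. Ach13g388891.2 (group 13, 1425 bases) had 333 and 327 CPM in inner pericarp and 330 and 334 CPM in outer pericarp. Ach00g295941.2 (group 00, 1308 bases) had 173 and 171 CPM in inner pericarp and 173 and 169 CPM in outer pericarp. In these members too the libraries of the tissues overlapped.

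At this depth the members at the top of that order could not be ranked. The counting error of a single library, taken as a coefficient of variation from the mean count, had a median of 3.30% over the members and ran from 1.90% to 4.22%. The observed coefficient of variation over the 4 libraries had a median of 4.78% and ran from 0.605% to 7.34%. In 62 of the 283 members the observed spread was smaller than the counting error, and these included all 30 members within 5%. In Ach19g406511.2, the exact 95% counting interval of inner pericarp replicate 1 alone ran from 116 to 135 CPM. The exact intervals of the 4 libraries shared a common value in 203 members (71.7%), against 25 of the 1042 other gene models of the class (2.4%), a contrast that follows from the limit. Over all 18359 gene models tested, most of them at lower counts with wider intervals, 10730 had a shared value (58.4%). In the remaining 80 members the libraries differed by more than those intervals, although by at most 15%. Intervals cover counting error only.

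Just inside the limit lay Ach19g334761.2 (group 19, 2352 bases), with 175 and 171 CPM in inner pericarp and 196 and 197 CPM in outer pericarp. Both of its outer libraries lay above both of its inner libraries. Ach00g078971.2 (group 00, 4164 bases) had 144 and 144 CPM in inner pericarp and 126 and 145 CPM in outer pericarp, so its nearness to the limit rested on outer replicate 1. Ach10g101901.2 (group 10, 1629 bases) had 107 and 116 CPM in inner pericarp and 101 and 112 CPM in outer pericarp, with the tissues overlapping.

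The 3 nearest gene models outside the limit had higher mean levels than the 3 nearest inside it. Ach20g235931.2 had 241 and 221 CPM in inner pericarp and 209 and 210 CPM in outer pericarp, with inner above outer. Ach23g114551.2 had 273 and 275 CPM in inner pericarp and 244 and 281 CPM in outer pericarp, with outer replicate 1 alone low. Ach22g214701.2 had 284 and 305 CPM in inner pericarp and 304 and 327 CPM in outer pericarp, with outer replicate 2 highest and inner replicate 1 lowest.

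**Figure D2:**
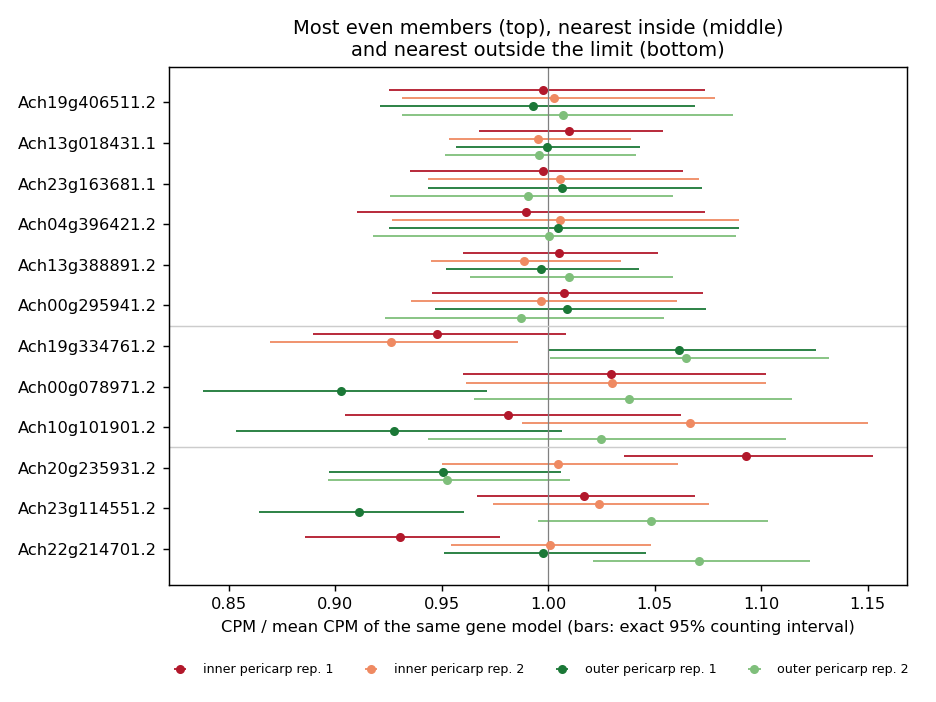
Level in each library divided by the gene model's own mean (horizontal) for the 6 most even members, the 3 members nearest inside the limit and the 3 gene models nearest outside it (vertical). Points are single libraries and bars are exact 95% counting intervals; in the top 6 all 4 bars overlap, whereas in Ach19g334761.2 both outer pericarp points lie to the right of both inner pericarp points.

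The members with the highest mean CPM were Ach17g325961.2, Ach22g336951.2 and Ach13g349781.2, and each showed a spread beyond its counting error. Ach17g325961.2 (group 17, 726 bases) had 529 and 515 CPM in inner pericarp and 470 and 476 CPM in outer pericarp, with inner above outer. Its counting error was 1.90%, against an observed coefficient of variation of 5.75%. Ach22g336951.2 (group 22, 474 bases) had 505 and 501 CPM in inner pericarp and 463 and 506 CPM in outer pericarp, with only outer replicate 1 low. Ach13g349781.2 (group 13, 1824 bases) had 463 and 470 CPM in inner pericarp and 493 and 520 CPM in outer pericarp, with outer above inner.

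The members with the lowest mean CPM lay next to the lower bound of the class. Ach26g078681.1 (group 26, 621 bases) had 100.2 and 99.8 CPM in inner pericarp and 98.5 and 103 CPM in outer pericarp. Ach00g079051.2 (group 00, 936 bases) had 98.4 and 99.5 CPM in inner pericarp and 104 and 101 CPM in outer pericarp. For these, the counting error of 4.2% exceeded the observed coefficients of variation of 1.77% and 2.38%. Ach16g364991.2 (group 16, 1449 bases) had 98.3 and 94.8 CPM in inner pericarp and 102 and 108 CPM in outer pericarp, close to the limit at a ratio of 1.14.

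Per kilobase of coding length, the members' mean level ranged from 19.9 to 1233 CPM per kilobase with a median of 168, against a median of 130 CPM per kilobase in the rest of the class. Ach09g401851.2 (group 09, 309 bases) stood at 1233 CPM per kilobase, with 396 and 399 CPM in inner pericarp and 381 and 348 CPM in outer pericarp before division by length. Ach22g336951.2 followed at 1041 CPM per kilobase. At the other end were the longest members, Ach07g157361.2 (group 07, 5100 bases) at 19.9 and Ach00g397721.2 (group 00, 5382 bases) at 23.6 CPM per kilobase. Ach07g157361.2 had 104 and 101 CPM in inner pericarp and 101 and 101 CPM in outer pericarp, among the more even members. Ach00g397721.2 had 122 and 123 CPM in inner pericarp and 124 and 139 CPM in outer pericarp, with outer replicate 2 alone high. The shortest member, Ach20g399911.2 (group 20, 303 bases), had 298 and 293 CPM in inner pericarp and 273 and 270 CPM in outer pericarp, with inner above outer.

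By column totals, the members' extremes were spread over all libraries. The highest level was in inner pericarp replicate 1 for 54 members, in inner replicate 2 for 67, in outer replicate 1 for 70 and in outer replicate 2 for 92. The lowest level was in these libraries for 62, 69, 73 and 79 members. The median absolute log2 ratio was 0.038 within the inner pair, 0.068 within the outer pair and 0.068 between the tissue means. In the rest of the class the same medians were 0.056, 0.17 and 0.31. The rule bounds all 3 medians in the members, and a difference between means of 2 libraries is not on the same footing as one between single libraries. Inner and outer libraries were fully separated in 145 members (51.2%), against 57.7% of all 18359 gene models tested. Of these, 76 members had inner above outer pericarp, against 24% of all tested, and 69 had outer above inner, against 33.7%. Nothing is read from these shares, since the rule used the same values.

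The picture changed when the libraries were scaled by TMM factors, edgeR's trimmed mean of log ratios, which set the bulk of all genes equal between libraries. Relative to column totals, TMM gave outer pericarp replicate 2 a factor of 1.06 and the other libraries factors of 0.970 to 0.986. The members' level in outer replicate 2, over each member's own mean, then had a median of 0.942, against 1.02 in inner replicate 1, 1.03 in inner replicate 2 and 1.01 in outer replicate 1. Outer replicate 2 was the lowest library for 194 of the 283 members and the highest for 7. The members' median ratio became 1.13, and the largest was 1.26, in Ach09g401851.2.

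With TMM factors 255 gene models met the same rule, and 168 of them were members. The shared gene models were 59.4% of the members and 65.9% of the TMM list. Of the 30 members within 5%, 29 met the rule with TMM. Of the 81 between 5% and 10%, 53 did, and of the 172 between 10% and 15%, 86 did. A change of scaling moves each ratio by a bounded amount, and members near the limit had the least room. That order therefore follows from the rule. Median-of-ratios factors gave 247 gene models with 152 members among them, and upper-quartile factors gave 255 with 166. All 152 members retained under median-of-ratios also met the rule under both of the other factors, and so formed the part of the list that did not depend on these scalings. The member most even with TMM was Ach10g370161.2 (group 10), at a TMM ratio of 1.02, singled out after its values were seen. By column totals it had 152 and 153 CPM in inner pericarp and 152 and 167 CPM in outer pericarp, so only outer replicate 2 was high on that scale.

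Keeping Ach00g022471.2 in the totals had a larger effect. Only 87 gene models then met the rule, 55 of them members, which is 19.4% of the members and 63.2% of that list. All 283 members then had their highest level in inner pericarp replicate 1, where Ach00g022471.2 was at 0. Their summed share became 5.68% of that library and 4.87% to 4.95% of the others.

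**Figure D3:**
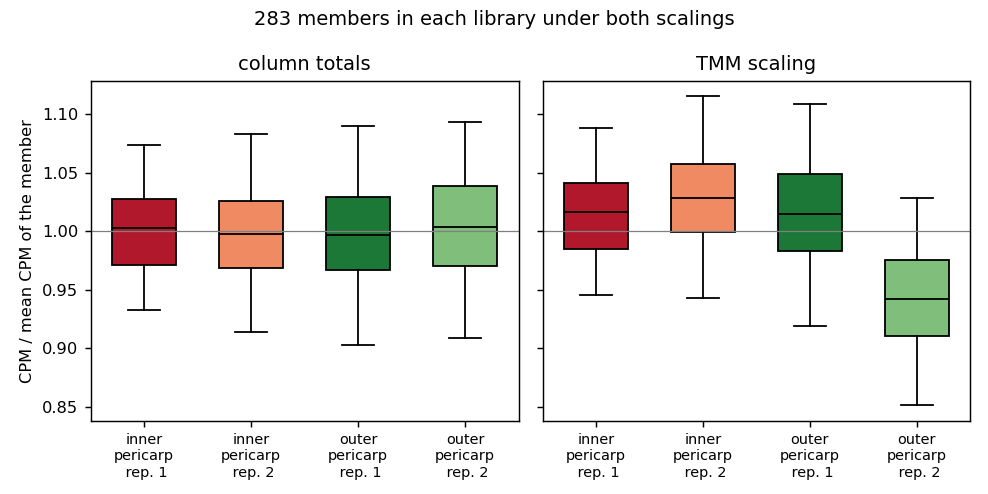
Level of the 283 members in each library divided by each member's own mean (vertical), scaled by column totals (left) and by TMM factors (right). Boxes show the median and quartiles and whiskers reach the lowest and highest member; with TMM the median in outer pericarp replicate 2 falls to 0.942 while the other libraries lie between 1.01 and 1.03.

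In the comparison of inner with outer pericarp across all genes, edgeR's quasi-likelihood test called no member in either direction at an adjusted p under 0.05. An unadjusted p under 0.05 was found in 4 of the 283 members, against 5588 of all 18359 gene models tested. Of all tested, 17.9% were called, with 8.56% higher in inner and 9.36% higher in outer pericarp. In the rest of the abundance class 494 of 1042 (47.4%) were called. DESeq2 called no member, with 1 at an unadjusted p under 0.05, against 3204 of 19608 over all tested. It called 3.96% of all tested higher in inner and 3.51% higher in outer pericarp. The limma-voom fit called none, with 8 at an unadjusted p under 0.05, against 5583 of 18359 over all tested. It called 8.62% and 8.94% of all tested. The rule had used this contrast and bounded the members' difference between the tissues. The absence of calls in these fits follows largely from that, and nothing is read from it. All members had passed the low-count filter. The members' log2 fold changes, inner over outer, ran from -0.12 to 0.23 with a median of 0.056, against a median of -0.0090 over all tested and 0.031 over the rest of the class. With library totals as the scaling of that fit, the members' median was -0.0082 and that of all tested -0.072, so the sign of the members' median depended on the scaling.

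An absent call does not make a member equal in both tissues. The median standard error of a member's log2 fold change was 0.10. The 95% interval of the fold lay within 1.5-fold in either direction in all 283 members and within 1.2-fold in 90 (31.8%). Over all tested these shares were 30.1% and 0.953%, and over the rest of the class 54.3% and 2.98%. The rule bounded the members' fold, so their shares follow largely from it. In no member, and in no other gene model tested, did the interval lie within 1.1-fold. These intervals take no account of the choice of the members for evenness. For Ach19g406511.2, at 126 ± 0.474 CPM in inner pericarp and 126 ± 1.23 CPM in outer pericarp (SD, n = 2), the log2 fold change was 0.063 ± 0.10 (SE), with an interval from -0.16 to 0.29. For Ach17g325961.2, at 522 ± 9.75 CPM in inner and 473 ± 4.25 CPM in outer pericarp (SD, n = 2), it was 0.20 ± 0.094 (SE), with an interval from 0.0012 to 0.40 and an edgeR adjusted p of 0.161. The largest fold over the members was that of Ach20g236761.1, singled out after its values were seen, with 209 and 209 CPM in inner pericarp and 189 and 182 CPM in outer pericarp. The fitted difference was 0.23 ± 0.10 on the log2 scale (SE), with an edgeR adjusted p of 0.141.

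The absence of calls did not hold in every fit with 1 library left out. Without outer pericarp replicate 1, the spread came from the close inner pair alone (common biological coefficient of variation 3.11%). The members that edgeR called in that fit were all higher in inner pericarp. Nearly all of them were members that did not meet the rule with TMM factors. The share of members called higher in inner pericarp lay above that of all tested and below that of the rest of the abundance class. Ach17g325961.2 and Ach09g401851.2 were among those called, with log2 fold changes of 0.26 and 0.32. Without outer replicate 2 the spread also came from the inner pair, at 3.13%, and edgeR called 2 members higher in inner and 1 higher in outer pericarp, against 8.58% and 9.19% of all tested, with 41 members at an unadjusted p under 0.05. The members' median log2 fold change, inner over outer, was 0.12 without outer replicate 1 and 0.0058 without outer replicate 2. Without inner replicate 1 no member was called, against 3.75% and 3.79% of all tested in the respective directions, and without inner replicate 2 none, against 3.33% in each direction. The spread in both of those fits came from the outer pair, at 12.7%. In these fits the lone library of a tissue was assumed to vary like the other pair.

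Members that also met the rule with TMM factors had smaller folds than those that did not. Without outer replicate 1, the median log2 fold change was 0.067 over the 168 that met it and 0.22 over the other 115. With all libraries these medians were 0.021 and 0.14. The rule with TMM bounds the fitted fold of the 168, so this contrast follows from the split and nothing is read from it. Of all 255 gene models that met the rule with TMM, edgeR called none with all libraries, and 1 higher in inner and 4 higher in outer pericarp without outer replicate 1. None of those 255 had an unadjusted p under 0.05 with all libraries. The fit used the same TMM scaling as the choice of that list, so its evenness there is again a description.

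A library that was not used to choose gene models gives a reading of evenness outside that choice. The other library of its tissue was among those that chose, so closeness of replicates and evenness across tissues cannot be told apart in it. When 3 libraries chose by the same bounds, the level in the remaining library was compared with the mean of the 3. With inner pericarp replicate 1 left out, 343 gene models were chosen and 288 of them (84.0%, exact 95% interval 79.6% to 87.7%) stayed within the limit once it was added. With inner replicate 2 left out, 283 of 344 did (82.3%, 77.8% to 86.2%). The shares were lower for the outer libraries. With outer replicate 1 left out, 283 of 483 stayed (58.6%, 54.1% to 63.0%), and with outer replicate 2 left out, 283 of 515 did (55.0%, 50.5% to 59.3%). Those that stayed were almost all members, 283, 283, 280 and 280 of them in the respective readings, since a member had to pass the limit on any 3 libraries. The number that stayed was thus nearly fixed by the rule, and the shares differed with the number chosen. The intervals treat gene models as separate draws. Each reading rested on a single library, so they cover no spread between libraries.

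Among the gene models chosen, the inner libraries lay closer to the mean of the libraries that chose. Those read in an inner library had already passed the limit in both outer libraries. In the whole class outer replicate 1 lay as close as the inner libraries did. Within 15% of the mean of the other 3 libraries lay 97.7% and 98.0% of those chosen when inner replicates 1 and 2 were left out, against 63.3% and 59.6% of the whole class. The corresponding shares were 80.1% against 63.7% for outer replicate 1 and 71.8% against 52.5% for outer replicate 2. Over the gene models chosen, the lowest level in the library left out was 0.479 of the mean of the others and the highest 1.59, both with outer replicate 2 left out. A departure beyond 2-fold was seen in 1 of the 515 chosen there (0.194%), against 41 of the 1296 in the class (3.16%). In the other 3 readings no gene model chosen departed beyond 2-fold, against 23, 23 and 26 in the class.

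The level in one tissue was also read for gene models chosen for evenness in the other. The inner libraries were within the limit of each other in 1259 of the 1281 gene models at 100 to 500 CPM in that tissue (98.3%). The outer mean lay within 15% of the inner mean in 50.6% of these. They made up nearly the whole class, for which the share was 50.4%, so these shares cannot show whether evenness in inner pericarp bears on the outer level. The outer libraries were within the limit in 917 of 1360 (67.4%). The inner mean lay within 15% of the outer mean in 50.6% of these (exact interval 47.3% to 53.9%), against 47.3% of the class. The outer mean ranged from 0.0697 to 4.24 times the inner mean among gene models that were even in inner pericarp.

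**Figure D4:**
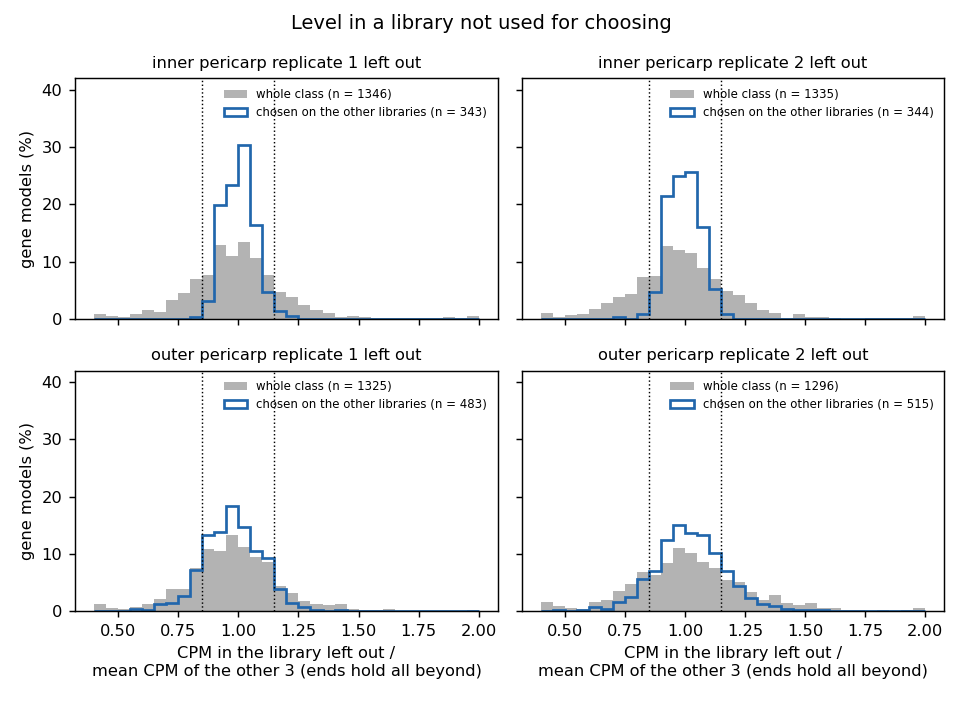
Level in the library left out divided by the mean of the other 3 (horizontal, bins of equal width, with everything beyond the range in the end bins) as a share of gene models (vertical, percent), 1 panel per library. Blue lines are gene models chosen for evenness on the other 3 libraries, grey areas the whole abundance class and dotted lines the bounds of 15% either way; the blue line is narrow where an inner pericarp library was left out and wider for the outer pericarp libraries.

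The share of gene models that met the limit differed with abundance. Of those at 20 to 50 CPM it was 10.1% (407 of 4044), rising to 15.2% at 50 to 100 CPM. Within the members' own class it was 20.2% below 200 CPM, 21.9% from there to 300 CPM, and 26.7% (46 of 172) above. With TMM factors these shares were 19.01%, 19.8% and 20.1%, so the higher share from 300 CPM depended on the scaling. Among the 190 gene models from 500 CPM upward it was 14.7% (28 gene models). The median counting error fell over the same range from 7.63% at 20 to 50 CPM to 2.19% at 300 to 500 CPM, and to 1.44% from 500 CPM upward. The median observed coefficient of variation was 14.1%, 11.1% and 15.3% in these 3 classes. From 500 CPM upward, where counting error was smallest, the share with TMM factors was 13.7%.

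Coding length was not used by the rule, and its relation to membership turned with the scaling. With column totals the members had a median coding length of 1158 bases, against 1326 bases in the rest of the class. Under 1000 bases lay 118 of the 283 members (41.7%), against 33.9% of the rest. With TMM factors 74 of the 255 gene models that met the rule were under 1000 bases (29.0%), against 37.0% of the rest, and their median was 1353 bases. The members were therefore shorter than the rest of the class under one scaling and the corresponding list longer under the other. Over all 18359 gene models tested the median was 1164 bases, with 40.7% under 1000 bases. Those values were close to the members' own by column totals. No test was made over gene models.

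By length class, 23 of 120 gene models under 500 bases were members (19.2%, exact 95% interval 12.6% to 27.4%), 95 of 351 from there to 1000 bases (27.1%), 123 of 544 from 1000 to 2000 bases (22.6%) and 42 of 310 above that (13.5%, 9.94% to 17.9%). With TMM only 6 of 120 met the rule under 500 bases (5%, 1.86% to 10.6%), and 56 of 311 did from 2000 bases upward (18.0%). The outer libraries differed with length in the same class. The median log2 ratio of outer replicate 1 over replicate 2, by column totals, was 0.15 in the class's shortest gene models, 0.070 and -0.069 in the next classes of length, and -0.20 in the longest. Among the members, where the rule bounds it, the ratio went from 0.066 to -0.088 over the same classes. In the inner pair the medians of the class lay between -0.00092 and 0.019.

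When each library's trend against coding length was removed after TMM scaling, an alternative chosen after seeing the data, 312 gene models met the rule. The share was then 25% for the shortest class, 26.4% and 22% for the next and 22.9% for the longest. Of these 312, 171 were members, 60.4% of the members and 54.8% of that list. Under 1000 bases lay 39.1% of the 312, against 34.5% of the rest of the class. In edgeR's test with that trend removed, 2 members were called higher in inner pericarp and none higher in outer pericarp, against 10.4% and 11% of all tested. An unadjusted p under 0.05 in that test was found in 32 of the 283 members, against 6081 of all 18359 tested. Removing the trend takes out any tissue difference with length as well.

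**Figure D5:**
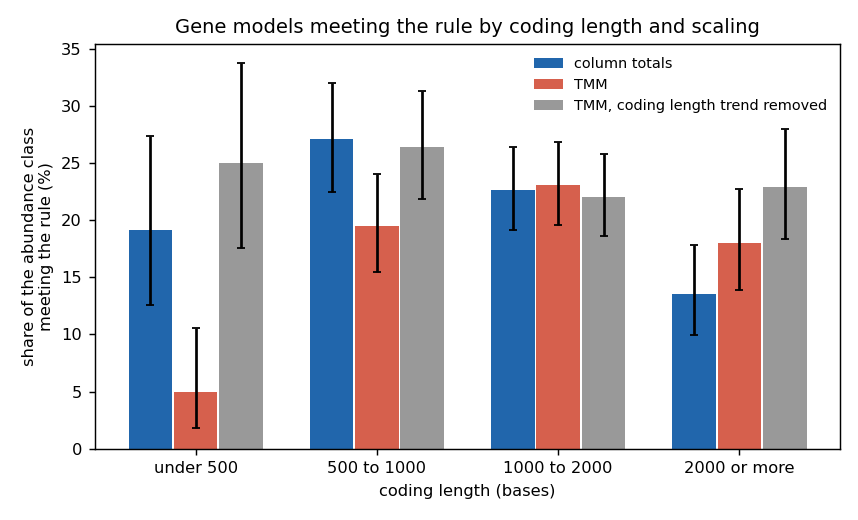
Share of the abundance class that met the rule (vertical, percent) by coding length (horizontal, bases), with column totals (blue), TMM factors (red) and TMM factors with the length trend removed (grey). Bars start at 0 and error bars are exact 95% binomial intervals; under 500 bases the share was 19.2%, 5% and 25% in that order.

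The members were spread over all 30 identifier groups of the gene models. Group 00 held 50 of them, out of 224 gene models of the class in that group (22.3%). The highest share was in group 19, where 19 of 46 were members (41.3%, exact 95% interval 27.0% to 56.8%), followed by group 14 with 11 of 28 (39.3%). The lowest was in group 08, with 2 of 40 (5%, 0.611% to 16.9%). Over the whole class it was 21.4%. With TMM the shares were 32.6% in group 19, 25% in group 14 and 13.2% in group 08. These are the extremes of 30 groups and were not tested.

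The members had 444 neighbours by running number in the same identifier group. A gene model with a member on either side was entered for each of them, here and for the rest of the class. Of the 444, 95 had no count in any library (21.4%) and the median level was 1.92 CPM. Beside the rest of the class, 22.1% of 1579 neighbours had no count and the median was 2.63 CPM. Of the members' neighbours at 20 CPM or more, 16 of 104 met the limit (15.4%), against 52 of 365 for the rest of the class (14.2%). Of the members' neighbours, 23 were in the abundance class and 6 of these were members (26.1%), against 17 of 57 beside the rest of the class (29.8%) and 21.4% of the class itself. The 6 formed 3 pairs of neighbouring members.

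In 1 of these pairs both gene models had the tissues fully separated in the same direction. Ach03g334571.2 had 109 and 110 CPM in inner pericarp and 106 and 105 CPM in outer pericarp, while Ach03g334581.1 beside it had 142 and 145 CPM in inner and 158 and 142 CPM in outer pericarp. Ach14g189241.2 had 159 and 158 CPM in inner and 175 and 182 CPM in outer pericarp, with outer above inner. Its neighbour Ach14g189251.1 had 286 and 264 CPM in inner and 275 and 264 CPM in outer pericarp, and its tissues overlapped. Ach23g082121.2 had 284 and 290 CPM in inner and 325 and 310 CPM in outer pericarp. Ach23g082131.1 next to it had 310 and 287 CPM in inner and 323 and 316 CPM in outer pericarp. In this last pair both gene models had outer above inner pericarp by column totals, by amounts within the limit.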

How the data were processed

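The authors deposited raw read counts, with a column for every library and a length for every gene model, per the file headers. All lengths are multiples of 3 and are called coding length. The submitters' processing notes name DESeq without version or role. The sources used here do not give the aligner, genome build, annotation, strand setting or treatment of reads shared by similar copies, so values of gene models with near-identical copies or overlaps are uncertain.

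Ach00g022471.2 was left out. CPM were computed from column totals. Tissues were compared in R 4.3.3 with edgeR 4.0.16 (filterByExpr, TMM, quasi-likelihood test, tissue as the only term, Benjamini-Hochberg adjustment over 18359 gene models); alternatives used DESeq2 1.42.0 and limma 3.58.1. The test was tried on simulated counts. Fold changes are inner over outer pericarp, with standard errors from the fitted model. Shares have exact (Clopper-Pearson) and counts exact Poisson 95% intervals. The intervals of shares treat gene models as separate draws and cover no spread between libraries. The members, lists and rules were chosen with earlier results of these data known. Named gene models were the most even, the highest and lowest in CPM and in CPM per kilobase, the longest and shortest, those nearest the limit and neighbouring members; lists of reference and marker genes could not be matched by name and were not tested.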

Additional observations from a re-analysis of the deposited data

How the results depend on the processing

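The number of gene models meeting the rule was 283 as reported. It was 247 to 255 with median-of-ratios, TMM and upper-quartile factors, 87 with Ach00g022471.2 kept in the totals, 111 at a limit of 10% and 446 at 20%, and 343 to 515 on 3 libraries. The share under 1000 bases was 29.0% with TMM, 39.1% with the length trend also removed, 41.4% and 42.4% at the other limits and 37.3% to 43.3% on 3 libraries. Members called higher in inner pericarp numbered 0 as reported, 2 with the length trend removed and 0 to 70 without 1 library; those higher in outer pericarp numbered 0 to 1 without 1 library. Their median log2 fold change was -0.0082 with library totals and 0.0058 to 0.12 without 1 library. Over all tested, edgeR called 1571 gene models higher in inner and 1719 higher in outer pericarp. DESeq2 called 777 and 689, edgeR without the low-count filter 182 and 158, and edgeR without 1 library 635 to 2120 and 634 to 1991. Of gene models chosen on 3 libraries, the share that stayed within the limit was 49.8% for outer pericarp replicate 2 with TMM. At a limit of 10% it was 67.7%, 65.7%, 37.8% and 34.0% for inner replicates 1 and 2 and outer replicates 1 and 2, and at 20% it was 89.7%, 88.1%, 72.3% and 66.6%. A tighter or wider limit changes these by its own construction; otherwise the cause was not tested. Among the members named by the rules given above, fold changes were called only without outer replicate 1. Ach10g370161.2 and Ach20g236761.1, singled out after their values were seen, are not covered by that statement. No paired analysis was possible because the labels carry no replicate numbers. With counting errors of 1.90% to 4.22% per library, differences of a few percent between members were not detectable at this depth.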
